A study of Mus musculus with 20 samples.

Results

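The brush border of the colon was followed through 10 genes of its cytoskeleton and adhesion links in distal colon (DC) tissue of mice fed resistant potato starch (RPS). The genes were grouped by the known role of their proteins, and the list was drawn up with earlier results of these data known. They are the actin bundlers Pls1, Vil1 and Espn, the membrane linkers Ezr and Myo1a, the protocadherins Cdhr2 and Cdhr5, the scaffolds Ush1c and Anks4b, and the motor Myo7b. All 10 were among the 26619 genes in the count table, and all 10 were among the 17893 genes with enough counts to be tested. The samples were DC tissue from 20 mice of strain C57BL/6, 5 on each of 4 diets. Every mouse, the controls included, ate the Total Western Diet (TWD), which is made to mimic what people in the United States eat, from 3 weeks of age for 6 weeks. For a further 3 weeks the diet either stayed the TWD (0% RPS, the control) or was the TWD with RPS at 2, 5 or 10%. RPS is a starch that escapes digestion in the small intestine, and the labels name it raw potato starch. Polyadenylated RNA of each piece of tissue was sequenced as its own library.

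Microvilli are finger-like projections packed side by side on the luminal face of absorptive cells, and together they form the brush border. Each is held up by a core of parallel actin filaments, which plastin-1 (Pls1, also called fimbrin), villin (Vil1) and espin (Espn) cross-link. Ezrin (Ezr) and the motor myosin-1a (Myo1a) tie the core to the surrounding membrane. At the tips, the protocadherins CDHR2 and CDHR5 of neighbouring microvilli bind each other and hold the microvilli in ordered arrays. Inside the cell their tails are gathered by harmonin (Ush1c), ANKS4B and the motor myosin-7b (Myo7b), and the whole assembly is called the intermicrovillar adhesion complex.

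Libraries held 18.4 to 34.97 megacounts, and the totals were lower at 10% RPS (24.3 ± 3.42 megacounts, SD, n = 5) than at 0% (32.8 ± 1.35 megacounts, SD, n = 5). Diets were taken from the description label, and for 3 mice another label gave another RPS level: mouse RS10_717 stood at 5% and 2%, mouse RS10_725 at 10% and 5%, and mouse RS10_748 at 2% and 10%. All 10 markers of epithelium and all 10 of smooth muscle averaged at least 1 CPM (the counts of a gene per megacount of its library after scaling), while 4 of 7 markers of small intestine enterocytes averaged less. The summed markers of pancreas reached 4312 CPM in mouse RS10_721 (5% RPS) and 384 CPM in mouse RS10_784 (10% RPS), against at most 12.1 CPM in the other 18 mice. Because the tissue is a mixture of cell types, fewer cells of a type and less RNA per cell cannot be told apart in any value below.

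Levels of different genes were compared as CPM per kilobase of merged exons. On this scale, at 0% RPS, Cdhr5 was the most abundant member (279 ± 22.2 CPM per kilobase, SD, n = 5), followed by Myo1a (213 ± 29.9), Ezr (138 ± 36.4), Vil1 (129 ± 12.8) and Cdhr2 (95.2 ± 6.12). A lower tier held Ush1c (34.8 ± 3.05), Pls1 (32.8 ± 3.75), Anks4b (28.8 ± 1.99) and Myo7b (24.8 ± 2.82), and Espn was lowest (7.67 ± 1.34). On the per-kilobase scale Cdhr2 lay above 98.3% of all tested genes, the 4 members ahead of it lay higher still, and Espn lay above 74.6%. Of the 9 neighbouring pairs in this order, the control ranges were separate in only 3, namely Vil1 over Cdhr2, Cdhr2 over Ush1c and Myo7b over Espn. The other 6 neighbouring pairs overlapped between control mice. Within single libraries, Cdhr5 exceeded Myo1a in 20 of 20, Myo1a exceeded Ezr in 19 of 20, Pls1 exceeded Anks4b in 19 of 20 and Anks4b exceeded Myo7b in 19 of 20. Ezr exceeded Vil1 in only 10 of 20 libraries and Ush1c exceeded Pls1 in 8 of 20, so these 2 pairs had no fixed order.

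**Figure D1:**
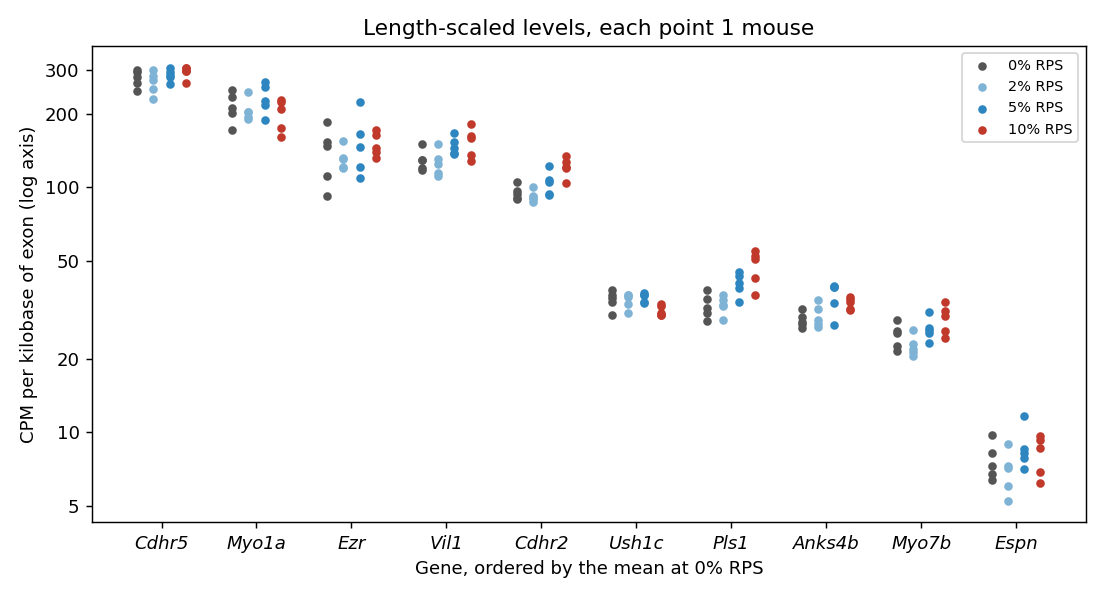
Level of each of the 10 genes in every mouse, in CPM per kilobase of merged exons on a log axis, with genes ordered by their mean at 0% RPS and points coloured by diet. Cdhr5 to Cdhr2 sit near or above 100 CPM per kilobase in most mice, 4 genes sit between about 20 and 55, and Espn sits apart near 8.

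The first question was whether any RPS level changed the abundance of these genes against the TWD alone. In the comparison of 10% with 0% RPS, 0 of 10 members passed the threshold of an adjusted p of at most 0.05 and a change of at least 1.5-fold, where 0.0391% of all tested genes did, all of them higher. By DESeq2 at the same thresholds the counts were 0 of 10 members and 0.811% of all genes. At an unadjusted p under 0.05, 5 members were higher and 1 was lower at 10% RPS, against 7.32% and 7.87% of all tested genes. In the comparisons of 5% and 2% with 0% RPS, 0 of 10 members were called, like 0 of all tested genes; by DESeq2 the counts were again 0 of 10 members, with 0.12% and 0.00386% of all genes called. At an unadjusted p under 0.05, 2 members were higher at 5% RPS, against 4.69% of all genes, and 0 of 10 at 2%, against 1.41% of all genes in either direction. Estimates were above 0 for 2 of 10 members at 2% RPS (49.6% of all tested genes), 10 of 10 at 5% (48%) and 8 of 10 at 10% (46.8%). The median log2 change of the 10 members was -0.05 at 2%, 0.14 at 5% and 0.17 at 10% RPS, where the median of all tested genes was 0.00, -0.01 and -0.01. These 3 comparisons share the same 5 control mice, and the members vary together between mice, so the counts over members are not independent of each other. In 0 of 10 members were all 5 mice on 10% RPS on one side of all 5 controls, where 2.28% of all tested genes had such groups.

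A gene can climb steadily with dose without passing any single comparison, so the slope over RPS percent was fitted across all 20 mice. Pls1 and Cdhr2 rose with RPS, 2 of 10 members at an adjusted p of at most 0.05, where 2.1% of all tested genes had a slope, 1.15% upwards and 0.95% downwards. DESeq2 also gave a slope to Pls1 and Cdhr2, where 3.81% of all genes had one. The other 8 members did not pass by either tool, and over the 10 members 8 slopes were above 0, against 46.9% of all tested genes. In the test for a difference of any shape among the diets, 0 of 10 members passed by edgeR, against 0.0727% of all tested genes, with adjusted p of 0.0866 for Pls1 and 0.129 for Cdhr2. At an unadjusted p under 0.05 there were 5 of 10 (Pls1, Vil1, Cdhr2, Anks4b and Myo7b), against 10.6% of all tested genes. By DESeq2, which called 1.35% of all genes in that test, Pls1 and Cdhr2 passed it. Diet accounted for 66.5% of the variance of log2 CPM of Cdhr2 and 64.2% of that of Pls1, then 45.6% for Anks4b, 44.2% for Myo7b, 40.7% for Vil1 and 37.8% for Ush1c, and for 9.01 to 22.5% for Cdhr5, Espn, Myo1a and Ezr. The median over all tested genes was 16.3%.

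**Figure D2:**
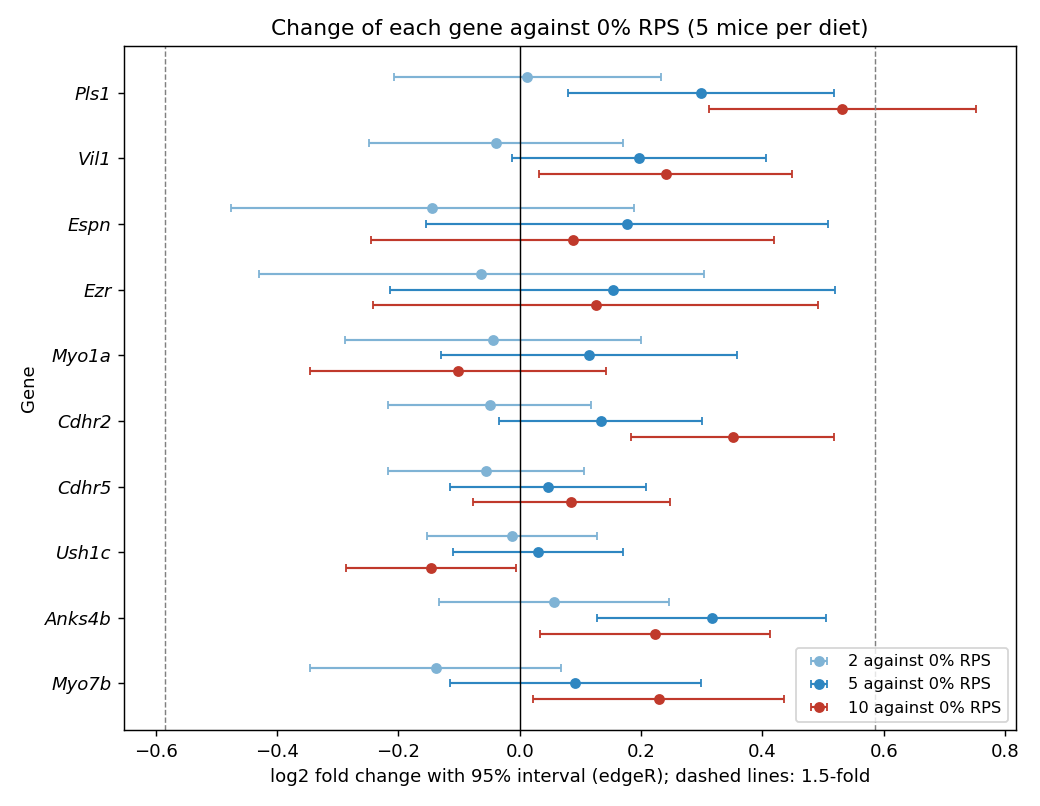
Log2 fold change of each gene at 2, 5 and 10% RPS against 0% RPS with its 95% interval from edgeR, and dashed lines at 1.5-fold. Only the intervals of Pls1 and Anks4b at 5% and of Pls1, Cdhr2, Vil1, Myo7b, Anks4b (upwards) and Ush1c (downwards) at 10% leave 0, and all 30 estimates lie inside the dashed lines.

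The bases upstream of the start sites are shown for Pls1 and Cdhr2, the members with a slope, and for Anks4b, the only member whose window held an HNF4-like motif. Each run covers positions -250 to -51 from the RefSeq start, 5′ to 3′ on the strand of the gene. It was read from the RefSeq promoter table (GRCm38.p6) and placed by an exact match at 1 place in GRCm39. Capitals mark the motif in Anks4b, and no motif searched was found in the runs of Pls1 and Cdhr2.
Pls1, chr9:95727383-95727582, minus strand: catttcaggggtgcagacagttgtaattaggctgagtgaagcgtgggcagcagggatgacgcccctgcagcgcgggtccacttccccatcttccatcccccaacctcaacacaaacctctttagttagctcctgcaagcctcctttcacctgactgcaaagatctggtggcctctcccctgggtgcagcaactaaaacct
Cdhr2, chr13:54849026-54849225, plus strand: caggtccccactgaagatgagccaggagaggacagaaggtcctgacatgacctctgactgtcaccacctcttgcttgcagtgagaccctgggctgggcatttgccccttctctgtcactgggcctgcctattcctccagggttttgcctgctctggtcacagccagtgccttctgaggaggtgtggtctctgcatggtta
Anks4b, chr7:119772831-119773030, plus strand: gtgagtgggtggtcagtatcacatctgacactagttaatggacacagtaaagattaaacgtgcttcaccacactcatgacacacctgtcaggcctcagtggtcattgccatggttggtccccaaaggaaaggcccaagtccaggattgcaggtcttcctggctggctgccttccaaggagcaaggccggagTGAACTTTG
The table held 11 windows for 9 of the 10 members, 3 of them for Espn, and none for Myo7b. Searched on both strands over 300 bases, the HNF4 motif CAAAGTCCA was in 0 of 11 windows and in 0.479% of the 32544 windows of all genes, and its looser form CAAAGNNCA was in 1, that of Anks4b, 59 bases before the start on the opposite strand, and in 6.38% of all. The CDX motif TTTATNG was in 1 window, of Espn, and in 10.8% of all, and TATAAA was in 0 of 11 and in 13.6% of all. HNF4 and CDX proteins are transcription factors of intestinal epithelium, and a match of letters in this window does not show binding.

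Of the actin bundlers, plastin-1 rose with RPS, and villin and espin did not pass a test. Pls1 (ENSMUSG00000049493, GRCm39 chr9:95634544-95727364, minus strand) was at 146, 159, 173, 139.9 and 129 CPM in the control mice RS10_701, RS10_703, RS10_704, RS10_707 and RS10_708. It was at 131, 149, 166, 158 and 151 CPM in the 2% mice RS10_709, RS10_712, RS10_748, RS10_715 and RS10_716, which fell inside the control range. The 5% mice RS10_717, RS10_718, RS10_719, RS10_721 and RS10_724 had 177, 197, 185, 205 and 155 CPM, and the 10% mice RS10_725, RS10_727, RS10_729, RS10_731 and RS10_784 had 195, 165, 231, 251 and 239 CPM. Thus 4 of 5 mice on 5% and 4 of 5 mice on 10% RPS lay above every control, the exceptions being mice RS10_724 and RS10_727. The means were 149.6 ± 17.1, 151 ± 12.95, 184 ± 19.5 and 216 ± 35.5 CPM (SD, n = 5) at 0, 2, 5 and 10% RPS, in the order used for all means below. The log2 change was 0.01 (SE 0.11) at 2%, 0.30 (SE 0.11, adjusted p = 0.384) at 5% and 0.53 (SE 0.11, adjusted p = 0.0549) at 10%, a 1.45-fold higher level that missed the threshold in edgeR. DESeq2 gave an adjusted p of 0.00142 for the same comparison, with a fold change under 1.5. The slope amounted to a log2 rise of 0.57 (95% interval 0.37 to 0.77) over the 10 percentage points of RPS, with an adjusted p of 0.00596. When mice were grouped by the treatment label the slope was 0.0528 per percent on the log2 scale (adjusted p = 0.134) against 0.0572 as reported, with the epithelial markers as a covariate it was 0.0456 (adjusted p = 0.0762), and without the 3 mice whose labels disagree it was 0.0626 (adjusted p = 0.0193). Without control mouse RS10_704 or without mouse RS10_727, the shallowest library at 18.4 megacounts, the change at 10% passed the threshold, with log2 changes of 0.59 (adjusted p = 0.0274) and 0.62 (adjusted p = 0.00469).

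Villin bundles actin and can also sever it. Vil1 (ENSMUSG00000026175, chr1:74448535-74475933, plus strand) was at 628, 573, 730.6, 625 and 585 CPM in the control mice and at 655, 620.0, 770, 786 and 880.4 CPM in the 10% mice, in the order of mice given for Pls1. In other words, 3 of 5 mice on 10% RPS were above every control. The means were 628 ± 62.1, 611 ± 75.6, 720 ± 60.9 and 742 ± 105 CPM (SD, n = 5) with rising RPS. The log2 change at 10% was 0.24 (SE 0.10, adjusted p = 0.256), and the slope had an adjusted p of 0.103, which was 0.0303 without mouse RS10_727. Vil1 shares 1265 exon bases with Usp37 on the opposite strand, a gene with a mean of 40.4 CPM. Espn (ENSMUSG00000028943, chr4:152204788-152236887, minus strand), the scarcest bundler, had 65.3 ± 11.4, 59.1 ± 11.9, 73.8 ± 14.9 and 69.3 ± 12.99 CPM (SD, n = 5), and the 4 diets overlapped throughout. Its log2 change at 10% was 0.09 with a 95% interval of -0.24 to 0.42, which takes in both directions.

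**Figure D3:**
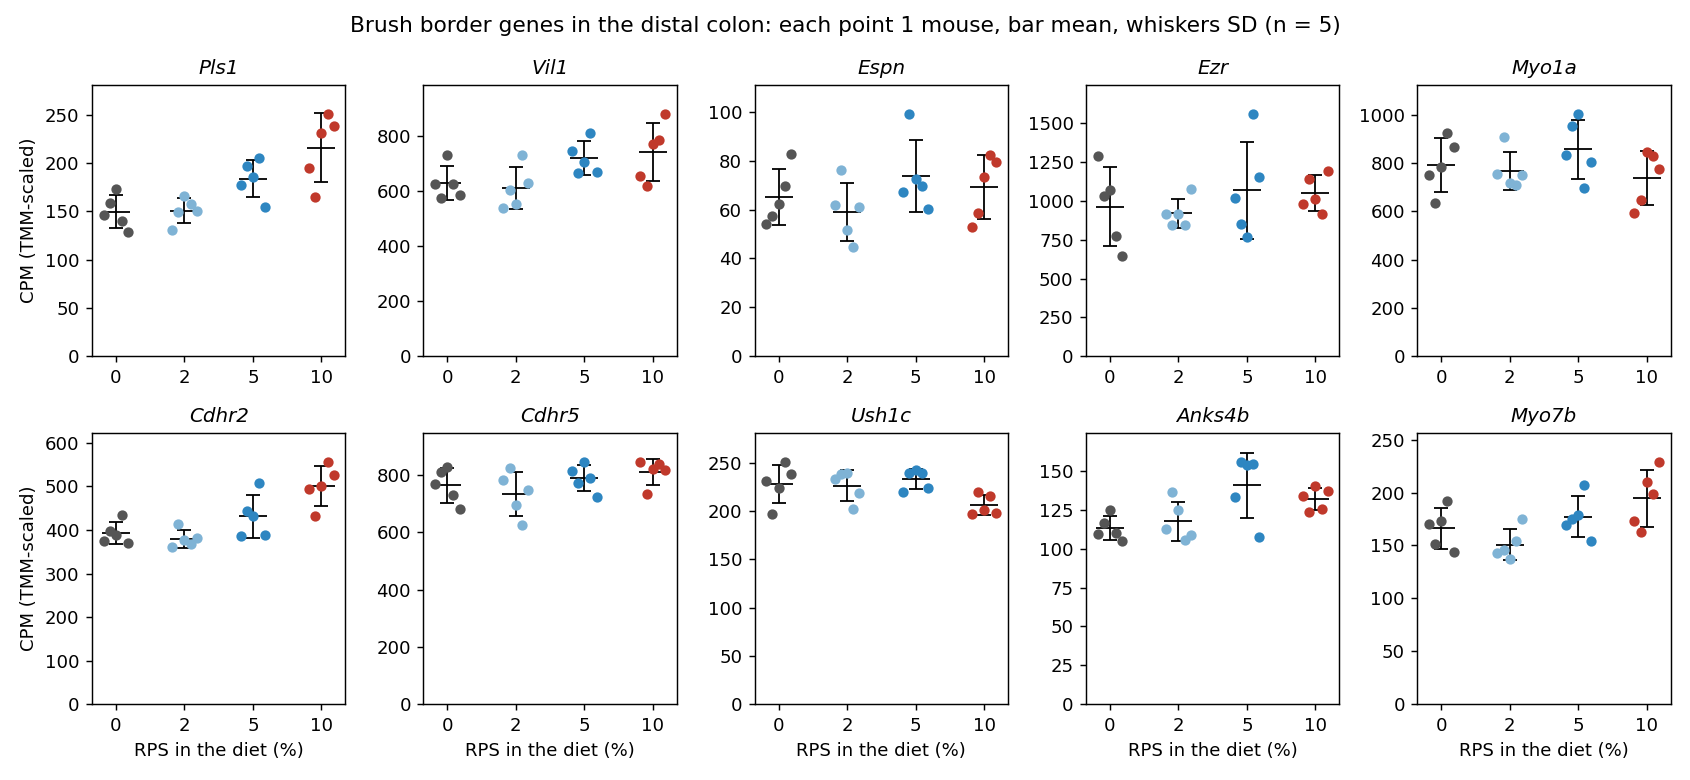
TMM-scaled CPM of each gene in every mouse by RPS level, 1 point per mouse, with the mean as a bar and the SD as whiskers (n = 5). The means of Pls1 and Cdhr2 at 2% RPS are close to those at 0%, and both are higher at 5 and 10%. Ush1c at 10% is held between 197 and 219 CPM, and the diets overlap in all 10 panels.

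The membrane linkers showed no difference between diets that exceeded the spread between mice. Ezr (ENSMUSG00000052397, chr17:7005440-7050611, minus strand) varied widely between mice of the same diet, from 645 to 1290.3 CPM among controls and from 765 to 1560.3 CPM at 5% RPS, the highest value being that of mouse RS10_721, which also held pancreas transcripts. Its means were 962 ± 255, 921 ± 95.3, 1070 ± 313 and 1049 ± 115 CPM (SD, n = 5), and the log2 change at 10% was 0.13 with a 95% interval of -0.24 to 0.49. With epithelial markers as a covariate the estimate changed sign, to -0.09. Myo1a (ENSMUSG00000025401, chr10:127541039-127556809, plus strand) had 792 ± 111, 768 ± 79.7, 858 ± 122 and 739 ± 112 CPM (SD, n = 5), with a log2 change at 10% of -0.10 and a 95% interval of -0.34 to 0.14. Its slope lay so close to 0 that leaving out mouse RS10_725 alone turned its sign.

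Of the protocadherins, which bind each other across neighbouring microvilli, Cdhr2 rose with RPS and Cdhr5 did not pass a test. Cdhr2 (ENSMUSG00000034918, chr13:54849271-54884475, plus strand) was at 374, 398, 389, 434 and 371 CPM in the control mice RS10_701, RS10_703, RS10_704, RS10_707 and RS10_708. The 2% mice RS10_709, RS10_712, RS10_748, RS10_715 and RS10_716 had 361, 414, 377, 369 and 381 CPM, and the 5% mice RS10_717, RS10_718, RS10_719, RS10_721 and RS10_724 had 385, 445, 433, 507 and 388 CPM. The 10% mice RS10_725, RS10_727, RS10_729, RS10_731 and RS10_784 had 494, 431, 500.1, 556 and 526 CPM. Here again 4 of 5 mice on 10% RPS exceeded every control, and mouse RS10_727 lay just under the highest control. The means were 393 ± 25.3, 380.1 ± 20.4, 431 ± 49.8 and 501 ± 46.3 CPM (SD, n = 5). The log2 change was -0.05 (SE 0.08) at 2%, 0.13 (SE 0.08) at 5% and 0.35 (SE 0.08) at 10%, and at 10% the adjusted p was 0.0721 by edgeR and 0.00512 by DESeq2, with a fold change of 1.28. The slope gave a log2 rise of 0.39 (95% interval 0.24 to 0.55) over the 10 percentage points, with an adjusted p of 0.0147. The slope, 0.0391 per percent as reported, lost its call with the treatment label (0.0329, adjusted p = 0.185), with the epithelial covariate (0.0371, adjusted p = 0.0884) and without mouse RS10_784 (0.0370, adjusted p = 0.0594), and it kept it without both mice that held pancreas transcripts (adjusted p = 0.0472) and without the 3 mice whose labels disagree (adjusted p = 0.0426).

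Cdhr5 (ENSMUSG00000025497, chr7:140848996-140856704, minus strand), its partner, had 765 ± 61.0, 736 ± 76.9, 790 ± 45.5 and 811 ± 45.3 CPM (SD, n = 5). Its log2 change at 10% was 0.09, with a 95% interval of -0.08 to 0.25 that ends well below 1.5-fold, and its slope had an adjusted p of 0.398. Within a library, the ratio of Cdhr2 to Cdhr5 CPM, not scaled by length, averaged 0.517 ± 0.0523 at 0%, 0.520 ± 0.0477 at 2%, 0.547 ± 0.0643 at 5% and 0.618 ± 0.0345 at 10% RPS (SD, n = 5). The lowest ratio at 10% RPS (0.584) lay under the highest control (0.595), so the groups overlapped at their edges. The ratio of Pls1 to Vil1 likewise went from 0.239 ± 0.0228 at 0% to 0.291 ± 0.0220 at 10% RPS (SD, n = 5), with 0.266 as the lowest value at 10% and 0.278 as the highest control. The pairs were set by the role of the proteins, and the ratios were not tested.

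**Figure D4:**
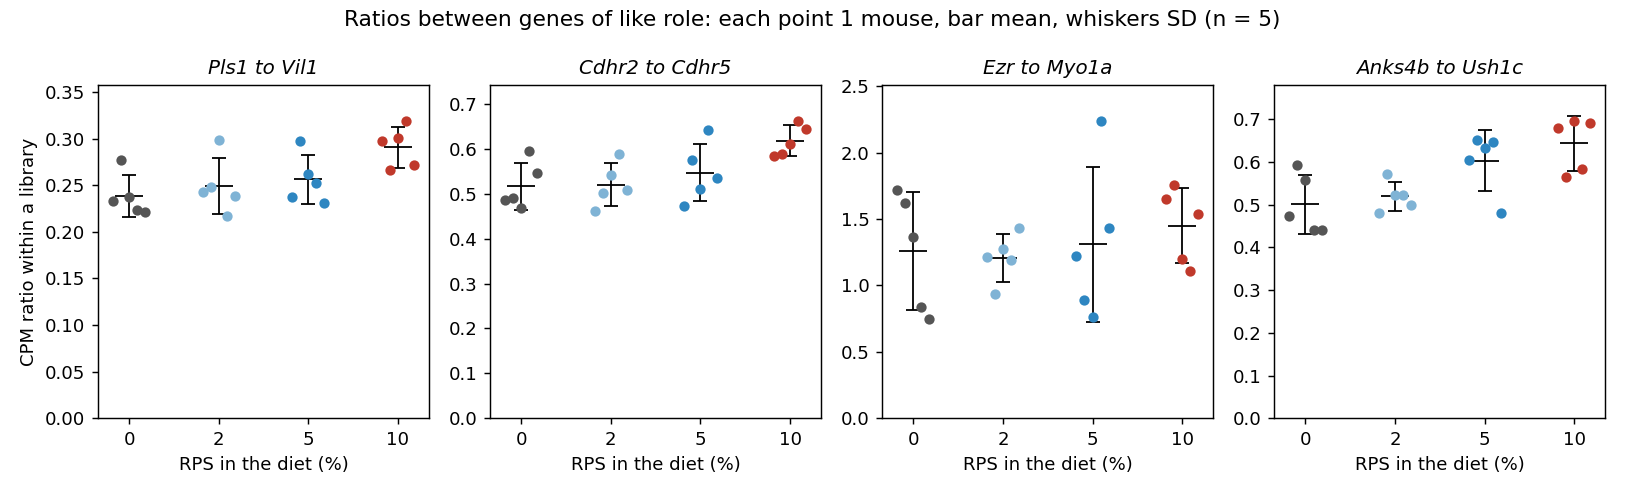
Ratio of CPM within a library for pairs of genes of like role, 1 point per mouse, with the mean as a bar and the SD as whiskers (n = 5). The mean ratios of Pls1 to Vil1, Cdhr2 to Cdhr5 and Anks4b to Ush1c are highest at 10% RPS, as is that of Ezr to Myo1a, which spreads from 0.745 to 1.72 among controls alone.

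On the inner side of the adhesion complex, none of the 3 genes passed an adjusted test at any level, and at 10% RPS the estimate of Ush1c was below 0 while those of Anks4b and Myo7b were above it. Ush1c (ENSMUSG00000030838, chr7:45843621-45887987, minus strand), which codes for harmonin, was at 231, 197, 224, 251 and 238 CPM in controls and at 197, 219, 201, 215 and 198 CPM in the 10% mice. Each of the 10% mice lay below at least 4 of the 5 controls, and RS10_725 lay just below the fifth, RS10_703, with which the other 4 overlapped. The means were 228 ± 19.99, 226 ± 15.9, 233 ± 10.2 and 206 ± 10.5 CPM (SD, n = 5), and the log2 change at 10% was -0.15 (SE 0.07, adjusted p = 0.314), the only estimate below 0 among members with an unadjusted p under 0.05. Ush1c shares 120 exon bases with Gm9860 on the other strand, a gene at 7.47 CPM.

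Anks4b (ENSMUSG00000030909, chr7:119773051-119784809, plus strand), a small ankyrin-repeat scaffold that binds harmonin and myosin-7b, had its highest mean at 5% RPS and not at 10%. It was at 109, 117, 125, 110.4 and 105 CPM in controls, at 133, 156, 154, 154 and 108 CPM in the 5% mice, and at 134, 124, 140.2, 126 and 137 CPM in the 10% mice. The means at 5 and 10% were not tested against each other. At both levels 4 of 5 mice were above every control, and the mice inside the control range were again RS10_724 and RS10_727. The means were 113 ± 7.82, 118 ± 12.7, 141 ± 20.8 and 132 ± 7.09 CPM (SD, n = 5). The log2 change was 0.32 (SE 0.09, adjusted p = 0.325) at 5% and 0.22 (SE 0.09, adjusted p = 0.247) at 10%. The ratio of Anks4b to Ush1c CPM averaged 0.500 ± 0.0700 at 0%, 0.520 ± 0.0342 at 2%, 0.603 ± 0.0707 at 5% and 0.643 ± 0.0637 at 10% RPS (SD, n = 5), with groups that overlapped.

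Myo7b (ENSMUSG00000024388), the motor that carries the complex towards the tips, was at 169.8, 151, 173, 192 and 144 CPM in controls and at 173, 163, 209.5, 199 and 229 CPM in the 10% mice. Mice RS10_729, RS10_731 and RS10_784 exceeded every control, and mice RS10_725 and RS10_727 did not. The means were 166 ± 18.9, 151 ± 14.8, 177 ± 19.3 and 195 ± 26.9 CPM (SD, n = 5). Its log2 change at 10% was 0.23 (SE 0.10, adjusted p = 0.280), and its slope had an adjusted p of 0.0945, which was 0.0342 without mouse RS10_727. For Calml4, which codes for a light chain of myosin-7b and is a further component of the complex, the log2 change at 10% was -0.03 (adjusted p = 0.888), from 120.0 ± 14.3 to 117 ± 8.27 CPM (SD, n = 5).

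Across the 20 mice some members varied together and others did not. Over the 45 pairs, Pearson's r of log2 CPM ran from -0.52 to 0.87 with a median of 0.36, and it ran from -0.61 to 0.75 with a median of 0.24 once each diet mean was subtracted. These values describe 20 libraries that share diets, tissue sampling and depth. Pls1 and Cdhr2 were the closest pair (r = 0.87, Spearman's rho = 0.78), and r was 0.66 with diet means subtracted and 0.78 without the 2 mice farthest from the median of Pls1. Between Pls1, Vil1, Cdhr2 and Myo7b r was 0.67 to 0.87, and Vil1 and Myo7b had r = 0.83, which was 0.75 within diets. Anks4b was not clearly apart from these genes, with r = 0.69 with Pls1, 0.62 with Cdhr2, and 0.48 with Vil1 and with Myo7b. It also had r = 0.62 with Cdhr5. Espn and Myo1a went together (r = 0.70, and 0.75 within diets), and Ush1c was nearest to Myo1a (r = 0.58). Ezr and Myo1a, both linkers of core and membrane, varied in opposite ways (r = -0.52, and -0.61 within diets). Ush1c had a median r of -0.24 with the other members.

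**Figure D5:**
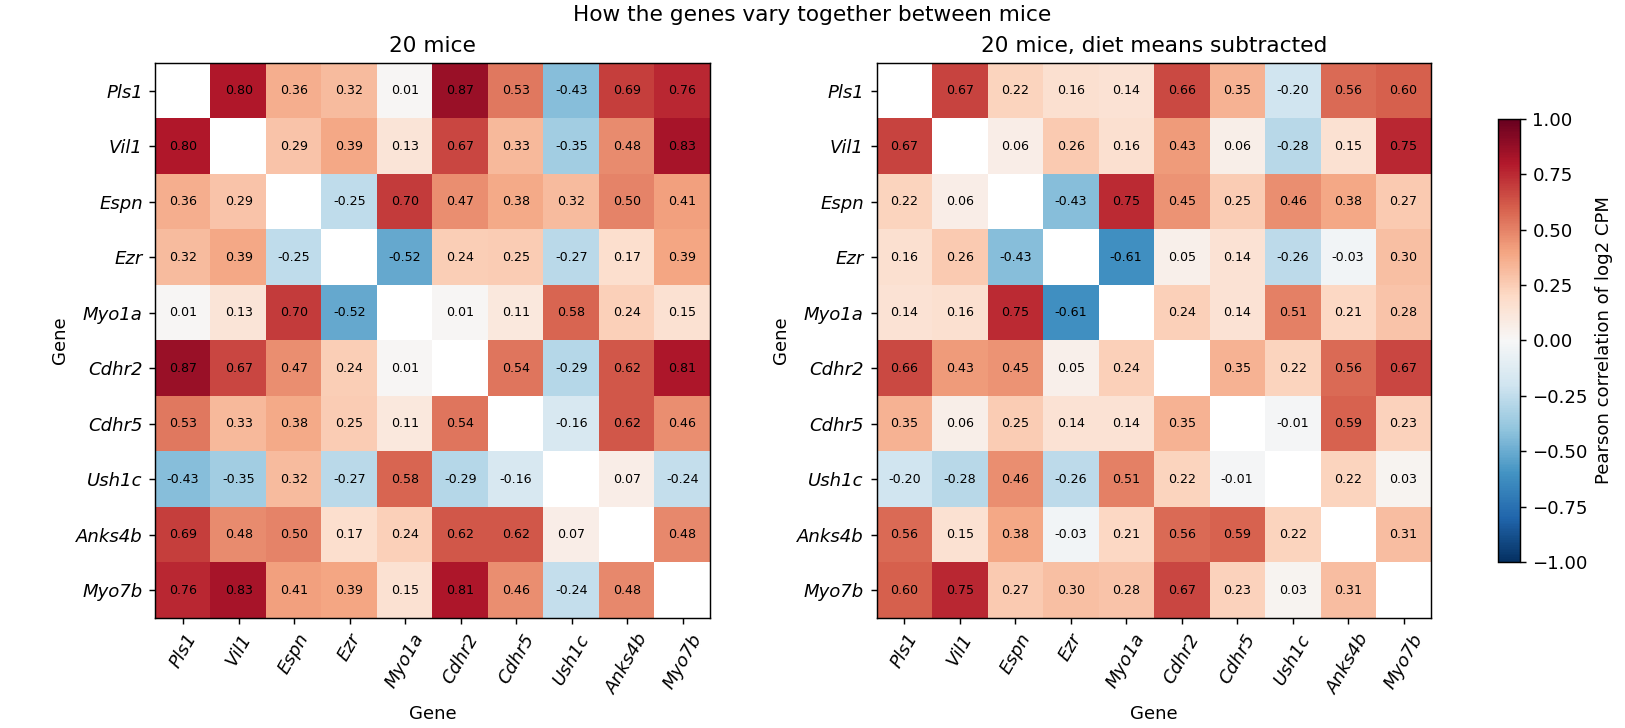
Pearson correlation of log2 CPM between the 10 genes over 20 mice, as measured (left) and with each diet mean subtracted (right), with the value in each cell. Pls1, Vil1, Cdhr2 and Myo7b are red against each other in both panels (0.67 to 0.87 on the left, 0.43 to 0.75 on the right), while Ezr against Myo1a is blue in both.

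As a summary of the mouse as a whole, the z-scores of the 10 members were averaged. The mean z-score was lowest in mouse RS10_715 on 2% RPS (-1.01) and highest in mouse RS10_721 on 5% (0.97), followed by mice RS10_784 (0.93) and RS10_731 (0.82) on 10%. Mice RS10_721 and RS10_784 were also the 2 mice that held pancreas transcripts. With the 3 tested pancreas markers the score had r = 0.40, and r = -0.36 without the 2 mice farthest from the median of those markers. Among the 10% mice, RS10_725 and RS10_727 had values below 0 (-0.14 and -0.31). Of 15222 other genes that averaged 1 CPM or more, the 8 whose log2 CPM followed this score most closely were Gtpbp2, Rfk, Ptprh, Mep1b, Baat, Yif1b, Gucd1 and Gm20634, with r from 0.90 down to 0.86 over 20 mice. Rfk codes for riboflavin kinase, and Mep1b codes for a subunit of meprin, a brush border metalloprotease. After subtraction of diet means r of these genes was 0.75 to 0.86.

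The wider microvillus was read from lists of genes chosen by role. Of 24 other microvillus and brush border genes, 0 were called at 10% RPS by edgeR, against 0.0391% of all tested genes. DESeq2 called 1 of the 24 there, against 0.811% of all genes. At an unadjusted p under 0.05, 5 were higher and 1 was lower at 10%, against 7.32% and 7.87% of all tested genes. By edgeR 3 had a slope, 2 upwards and 1 downwards, against 1.15% and 0.95% of all tested genes. DESeq2 gave an upward slope to 4 and a downward one to 1, against 3.81% of all genes in either direction. Nherf1, a scaffold that links ezrin to membrane proteins, rose from 189 ± 15.0 CPM at 0% to 267 ± 58.7 CPM at 10% RPS (SD, n = 5), with a slope of 0.05 per percent on the log2 scale (adjusted p = 0.0239). Nherf2, its relative, fell from 37.8 ± 5.33 to 27.4 ± 4.50 CPM (SD, n = 5), with a slope of -0.05 per percent (adjusted p = 0.0306). Thus the paralogues went in opposite directions. Tmigd1, an adhesion protein of the brush border, had a slope of 0.19 per percent (adjusted p = 0.0417) with diet means of only 0.998 to 3.51 CPM. Eps8, which caps and bundles actin at microvillus tips, had a log2 change of 0.31 at 10% (adjusted p = 0.342). The median log2 change of the list at 10% was 0.11, beside -0.01 over all genes.

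Of 14 genes of the terminal web and cortical actin, Actn4 (alpha-actinin-4) rose with RPS, from 676 ± 91.3 to 868 ± 125 CPM (SD, n = 5, adjusted p of the slope = 0.0360). Of 8 genes of apical trafficking 0 had a slope by edgeR, 1 had one by DESeq2 and 1 had an unadjusted p under 0.05, as did 19.1% of all tested genes. Among 13 brush border hydrolases and surface proteins, Mep1b (adjusted p = 0.0279) and Muc3a (adjusted p = 0.0476) rose. Counts of Muc3a, a mucin, are uncertain where its repeats match other mucins. Of 10 transcription factors of brush border genes 0 had a slope by edgeR, against 2.1% of all tested genes. By DESeq2 2 of them had one, against 3.81% of all genes. At an unadjusted p under 0.05 there were 2, against 19.1% of all tested genes. Hnf4a had a log2 change of 0.16 at 10% (adjusted p = 0.509), and Cdx2 had 1.44 (adjusted p = 0.139 by edgeR, and 0.0389 by DESeq2), from 11.5 ± 7.13 to 31.3 ± 7.98 CPM (SD, n = 5). With mice grouped by the treatment label, 0 of all tested genes had a slope, so every slope given here rests on the description label.

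Of 8 markers of mature surface colonocytes, the cells that carry the brush border, 5 rose with RPS (Aqp8, Car4, Ceacam20, Krt20 and Slc26a3), where 1.15% of all tested genes had an upward slope, and 3 did not pass. Car4, a carbonic anhydrase, was the 1 of 8 called at 10% RPS by edgeR (log2 change 0.71, adjusted p = 0.0102), against 0.0391% of all tested genes. DESeq2 called 3 of 8 there (Car4, Krt20 and Aqp8), all higher, against 0.811% of all genes. The summed level of the 8 markers was 5734 ± 691 CPM at 0% (5181 to 6792) and 8155 ± 546 CPM at 10% RPS (7394 to 8794; SD, n = 5), and all 8 averaged at least 1 CPM over the 20 mice. Over 20 mice, this list followed Pls1 with r = 0.92 (rho = 0.91, and r = 0.77 with diet means subtracted) and Cdhr2 with r = 0.78 (rho = 0.73, and r = 0.40 with diet means subtracted). The 24 other microvillus genes gave r = 0.90 with Pls1 and 0.81 with Cdhr2 (0.76 and 0.58 with diet means subtracted). For the 8 apical trafficking genes r was 0.79 and 0.75 (0.49 and 0.39 with diet means subtracted). The 7 goblet cell markers gave r = 0.69 with Pls1 and 0.48 with Cdhr2 (0.72 and 0.32 with diet means subtracted). For the 10 general epithelial markers r was 0.64 and 0.42 (0.51 and 0.16), and for the 7 crypt base and cycling markers 0.30 and -0.03 (0.59 and 0.07). Likeness to Pls1 was thus not particular to surface colonocyte or microvillus genes. With the other members, r of the surface markers ran from -0.40 (Ush1c) to 0.77 (Vil1). The part of surface colonocyte abundance in the slopes of Pls1 and Cdhr2 was not tested. General epithelial markers went from 18029 ± 1915 CPM (15617 to 20488) at 0% to 19346 ± 1361 CPM (17940.2 to 21435) at 10% RPS (SD, n = 5). Of these 10 markers 0 had a slope by edgeR, 1 by DESeq2 and 1 at an unadjusted p under 0.05. The shares of all genes with a slope were 2.1%, 3.81% and 19.1% by these 3 measures. Smooth muscle markers stood at 10114 ± 1828 and 10003 ± 930 CPM (SD, n = 5), and 0 of 10 had a slope by any of these measures. Likewise 0 of 7 fibroblast, 0 of 8 immune, 0 of 7 enteric nerve and glia, 0 of 7 goblet cell, 0 of 6 tuft cell, 0 of 7 crypt base and cycling, 0 of 3 tested pancreas and 0 of 5 tested small intestine enterocyte markers had a slope by edgeR. At an unadjusted p under 0.05, where 9% of all tested genes had an upward and 10.1% a downward slope, 3 nerve and glia markers had a downward slope, 3 goblet cell markers and 1 tuft cell marker had an upward one, and 1 enterocyte marker had each; DESeq2 gave a slope to 1 nerve and glia and 1 goblet cell marker, and for fibroblast, immune, crypt and pancreas markers the count was 0 by each.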

How the data were processed

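Distal colon RNA of 20 mice was sequenced by the authors as single-end reads from stranded polyadenylated libraries. The authors trimmed the reads, mapped them to GRCm39 with CLC Genomics Workbench and counted them per gene, and the deposited values are these unnormalised read counts, 1 column per mouse. The annotation release, the strand setting and the treatment of reads that match several places are not given in the sources used here, so reads of exons shared with a gene on the opposite strand may have been assigned to either.

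Groups followed the description label. Mouse numbers belong to 1 animal each. Over 40 pairs of mice of the same diet, the chi-square per degree of freedom between counts was 9.10 to 62.9, so no pair looked like 1 library deposited again. The p-values set a difference between diets against the spread between these mice, with each mouse taken as independent. Whether mice shared cages is not given, so that independence could not be checked.

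Gene identifiers were matched to the GENCODE annotation of GRCm39 (26338 of 26619). In R 4.3.3 with edgeR 4.0.16, genes were filtered with filterByExpr (minimum count 10), which kept 17893 of the 26004 genes with a count, libraries were scaled by TMM, and the quasi-likelihood F-test was run in a fit over the 4 diets with Benjamini-Hochberg adjustment over all tested genes. Adjusted p-values are from edgeR unless DESeq2 (1.42.0) is named. A call needed an adjusted p no higher than 0.05 and a fold change of at least 1.5; the slope over RPS percent and the test of any difference had no fold threshold. CPM is TMM-scaled, and a prior count of 2 was added for log2 CPM. Sensitivity to tool, scaling, filter, depth (libraries thinned to 18429493 counts), labels, marker covariates and single mice was computed with the same steps. The edgeR comparison at 10% RPS and the slope were also run on simulated counts. These counts were drawn gene by gene from the means and spread estimated here. They therefore do not cover genes that vary together or labels that disagree.

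All 10 members are named. Of the lists, genes past the test (some of which are not reported here) and 5 fixed genes (Calml4, Eps8, Nherf1, Hnf4a and Cdx2) are named, and the 8 genes most like the members were taken by Pearson's r. The members and lists were chosen with earlier results of these data known. Total counts of 18.4 to 34.97 megacounts per mouse left all members with ample counts, and the number of mice limits the precision.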

Additional observations from a re-analysis of the deposited data

Results flagged for a closer look

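Dixon's test was applied to each of the 10 genes in each diet, 40 groups of 5 mice, and 2 groups passed, which is what chance gives. For Myo1a at 2% RPS, mouse RS10_712 stood alone at 906 CPM above the next mouse at 756 CPM. For Cdhr5 at 10% RPS, mouse RS10_727 stood alone at 733 CPM below the next mouse at 817 CPM. Mouse RS10_727 had the shallowest library, with 18.4 megacounts.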

How the results depend on the processing

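The count of members called was 0 at 2, 5 and 10% RPS under every alternative with all mice (DESeq2, limma-voom, RLE scaling, no filter, thinned libraries, treatment label, marker covariates, no fold threshold, only the diets compared), and leaving out 1 mouse at a time gave 0 to 1 at 10% (Pls1, without mouse RS10_704 or RS10_727). The count of members with a slope was 2 as reported, 0 with the treatment label and 0 with the epithelial covariate, and from 1 (without mouse RS10_784) to 4 (without mouse RS10_727: Pls1, Cdhr2, Vil1 and Myo7b) with 1 mouse left out. For a difference of any shape it was 0, but 2 by DESeq2 and 0 to 2 with 1 mouse left out (without mouse RS10_704, RS10_724 or RS10_727). Over all genes, 7 were called at 10% by edgeR, against 210 by DESeq2, 13 with RLE scaling, 31 with the smooth muscle covariate, 12 with no fold threshold, 3 with only the diets compared, 0 with the treatment label, the epithelial covariate or the 3 disagreeing mice left out, and 5 to 188 with 1 mouse left out. At 5% and 2% DESeq2 called 31 and 1. Slopes numbered 375 over all genes, 985 by DESeq2, 0 with the treatment label, 11 with the epithelial covariate, 56 without the 3 disagreeing mice, 60 without mice RS10_721 and RS10_784 (chosen after seeing the data), and 24 (without RS10_784) to 1148 (without RS10_727). Any-shape differences numbered 13, against 349 by DESeq2, 8 with limma-voom or RLE scaling, 4 without mice RS10_721 and RS10_784, 0 with the treatment label, the epithelial covariate or the 3 disagreeing mice left out, and 0 to 42 with 1 mouse left out. The alternatives for this last test were also added after seeing the data.

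Of 610 values of single genes under alternatives, 597 kept direction and side of the threshold, 5 lost a call, 4 gained one and 4 changed sign. Those that changed sign were Ezr with the epithelial covariate (log2 change -0.0852 at 10%, slope -0.00502) and the slope of Myo1a (0.000806 without the 3 disagreeing mice, and -0.0113 to 0.0012 with 1 mouse left out). The cause was not tested. No paired analysis was possible because each mouse number belongs to 1 animal and nothing links mice across diets.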
